A study of Homo sapiens with 8 samples.

Results

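Cyclin-dependent kinase (CDK) inhibitors and G1 cyclins were examined on the 8 expression arrays of the colorectal cancer cell line DLD1. The group comprised 10 genes: the Cip/Kip inhibitors CDKN1A and CDKN1B, the INK4 inhibitors CDKN2A, CDKN2B, CDKN2C and CDKN2D, the D-type cyclins CCND1, CCND2 and CCND3, and CCNE1. Its members were the non-control probes whose gene name on the array was one of these symbols, which gave 10 of 36337 gene names and 12 of 50599 probes. CDKN1B and CDKN2A each had 2 probes, and the other genes had 1. Cells received a control siRNA (siCONT) or 1 of 2 siRNAs against UHRF1, and 48 h later 300 nM trichostatin A (TSA), a histone deacetylase inhibitor, or mock treatment with its ethanol solvent for 24 h. Either siRNA state was combined with either treatment, which gave 4 groups of 2 arrays: siCONT mock, depleted mock, siCONT given TSA, and depleted cells given TSA. DLD1 is an established colon adenocarcinoma line, and no other line was measured on these arrays. Knockdown was transient, and each depleted group held 1 array for each siRNA.

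In G1, D-type cyclins bind CDK4 and CDK6, and E-type cyclins bind CDK2. These kinases phosphorylate the retinoblastoma protein, which releases E2F factors and allows entry into S phase. INK4 inhibitors bind CDK4 and CDK6, whereas Cip/Kip inhibitors bind cyclin and CDK complexes, those of CDK2 in particular. UHRF1 brings the maintenance DNA methyltransferase to replicated DNA, and CDKN1A is known as a gene that histone deacetylase inhibitors induce in many cell lines.

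The level of a probe is the log2 of its processed intensity minus the log2 of the 75th percentile of all probes on that array, so levels of different probes are not comparable. The siCONT arrays of one treatment differed by 1.09 to 1.18 times the noise expected from repeated spots, against 10.5 to 12.7 times for the arrays of the 2 siRNAs. Each siCONT pair was therefore counted as 1 sample in group means, and means of depleted groups are given with their SD (n = 2 siRNAs). A change was called at a limma Benjamini-Hochberg adjusted p under 0.05 and at least 2-fold in a fit to all 8 arrays. Beside it stands the adjusted p of the same fit with the siCONT arrays averaged, which leaves 6 samples. Nothing states that the arrays came from separate cultures, so p-values measure only the spread between these arrays. The single slide held every mock array in one row and every TSA array in the other, so TSA and row position cannot be told apart. Slide columns 1 and 2 held the siCONT arrays, column 3 the first siRNA and column 4 the second. Depletion and column position therefore cannot be told apart either.

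UHRF1 itself was at 1.98 and 2.01 on the siCONT mock arrays and at 0.34 and -0.02 with the siRNAs under mock. It was at 1.04 and 1.01 in siCONT with TSA and at -1.55 and -2.14 with the siRNAs and TSA. Its log2 change with depletion was -1.83 under mock (SE 0.22, adjusted p = 0.012, or 0.252 with siCONT averaged) and -2.87 under TSA (SE 0.22, adjusted p = 0.0023, or 0.0536). All 11 colon epithelial markers were well above background on all arrays. Of 8 markers of other cell types, 6 were above background on no array, CD14 was on all 8 and COL1A1 on 4. The summed level of those 8 markers ran from -0.77 to -0.61 in siCONT mock, -0.17 to 0.89 in depleted mock, -0.35 to -0.28 in siCONT with TSA and 0.78 to 0.91 in depleted cells with TSA, and its part in the results was not tested.

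Promoter sequence is shown for CDKN2B, CDKN2D and CDKN1B, the members called in at least one comparison for which the RefSeq table (GRCh38.p14) lists a single start. Each is the 250 bases before the annotated start, on the gene's strand, and capitals mark every match to the GC box, the motif bound by Sp1-type factors, searched as GGGCGG on both strands (CCGCCC on the shown strand).
CDKN2B, chr9:22009306-22009555, minus strand: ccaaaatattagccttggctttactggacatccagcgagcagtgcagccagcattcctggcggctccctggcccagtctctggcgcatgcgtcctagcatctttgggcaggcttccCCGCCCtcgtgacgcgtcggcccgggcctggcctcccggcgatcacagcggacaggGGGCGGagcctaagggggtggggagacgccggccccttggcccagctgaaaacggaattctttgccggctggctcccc
CDKN2D, chr19:10568980-10569229, minus strand: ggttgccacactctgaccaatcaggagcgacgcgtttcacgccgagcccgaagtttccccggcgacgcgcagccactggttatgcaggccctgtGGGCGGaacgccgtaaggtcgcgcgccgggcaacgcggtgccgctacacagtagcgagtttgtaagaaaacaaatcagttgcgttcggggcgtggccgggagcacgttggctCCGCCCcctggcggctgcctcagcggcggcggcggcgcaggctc
CDKN1B, chr12:12717118-12717367, plus strand: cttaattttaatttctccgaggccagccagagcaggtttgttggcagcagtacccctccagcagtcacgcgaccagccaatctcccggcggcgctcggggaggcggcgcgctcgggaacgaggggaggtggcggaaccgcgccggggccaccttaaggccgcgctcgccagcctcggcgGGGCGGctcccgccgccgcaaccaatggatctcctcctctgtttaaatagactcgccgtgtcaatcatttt
The CDKN2B and CDKN2D windows each held 2 GC boxes, and the CDKN1B window held 1. They held 18, 33 and 27 CpG dinucleotides, respectively. Over all starts listed for the members, 10 of 13 windows held a GC box, against 42.6% of 35116 windows in the whole table. The window of CDKN1A held 4 and that of CCNE1 held 7. The table held 8 of the 10 members, and CCND1 and CCND2 were not among them. These are matches of letters in the reference, and neither binding nor methylation was measured on these arrays.

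CDKN1B encodes p27, which restrains cyclin E and CDK2. Its brighter probe (A_23_P204696, hg19 chr12:12871119-12871178) was at 3.47 and 3.56 in siCONT mock, at 2.09 and 2.44 in depleted mock, at 2.75 and 2.77 in siCONT with TSA, and at 2.33 and 2.43 in depleted cells with TSA. Both siCONT mock arrays lay above every other array. Depletion alone gave a log2 change of -1.25 (SE 0.15, adjusted p = 0.012), with -1.43 for the first siRNA and -1.08 for the second, and the call was lost with siCONT averaged (adjusted p = 0.319) and without the first (-1.30, adjusted p = 0.097) or the second siCONT mock array (-1.21, adjusted p = 0.102). Depletion plus TSA against siCONT mock gave -1.14 (SE 0.15, adjusted p = 0.0018, or 0.0577 with siCONT averaged). That change was under 2-fold, and the call was lost, under quantile normalization (-0.87) and under the 75th percentile over probes above background on all arrays (-0.90). TSA alone gave -0.76 (adjusted p = 0.011), which was under 2-fold.

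The other CDKN1B probe (A_24_P81841, chr12:12874940-12874999) was measured by 10 spots per array. It was at 3.12 on both siCONT mock arrays, at 2.63 and 1.93 in depleted mock, at 3.1 and 3.09 in siCONT with TSA, and at 2.11 and 2.16 in depleted cells with TSA. All 4 depleted arrays lay below all 4 siCONT arrays. The log2 change was -0.84 with depletion alone (SE 0.23, adjusted p = 0.070), -0.99 with depletion plus TSA (adjusted p = 0.014, or 0.135 with siCONT averaged) and -0.96 with depletion under TSA (adjusted p = 0.036, or 0.351), all under 2-fold. With TSA alone it was -0.03 (adjusted p = 0.931). Both probes were lower on the depleted arrays under mock, while for TSA alone the brighter probe gave -0.76. The difference between the probes was not tested.

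**Figure D1:**
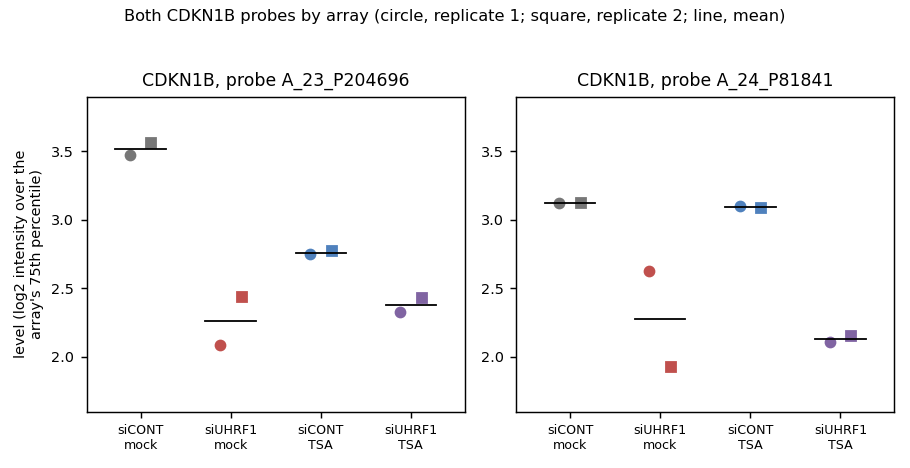
Level of the 2 CDKN1B probes on each of the 8 arrays (log2 intensity over the array's 75th percentile), by group, with a line at the group mean; circles are replicate 1 and squares replicate 2. The brighter probe had means of 3.52 in siCONT mock and 2.76 in siCONT with TSA, and the other 3.12 and 3.09.

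CDKN1A encodes p21, the Cip/Kip inhibitor induced by p53. Its probe was close to background, at -2.99 and -2.54 in siCONT mock, -2.43 and -4.90 in depleted mock, -3.05 and -2.93 in siCONT with TSA, and -0.98 and -1.83 in depleted cells with TSA. Only 1 of 2 arrays was well above background in each mock group, so depletion alone was not tested. CDKN1A entered the comparisons of TSA with mock only through the TSA arrays. Both arrays with depletion and TSA lay above the other 6. The log2 change with TSA in depleted cells was 2.26 (SE 0.76, adjusted p = 0.059, or 0.121 with siCONT averaged), with 1.45 for the first siRNA and 3.07 for the second. The dim mock array, the second siRNA at -4.90, enters that value. Depletion under TSA gave 1.59 (adjusted p = 0.197), depletion plus TSA against siCONT mock gave 1.36 (adjusted p = 0.185), and TSA alone gave -0.23 (adjusted p = 0.831). With the siRNA number as a block within the depleted arm, the change with TSA in depleted cells had an adjusted p of 0.010 in limma. The spread in that fit includes that of the siCONT pairs, which differed by little more than the spot noise. Scaled to the 75th percentile of those probes that exceeded background on every array, the change was 2.42 (adjusted p = 0.045) and was called. Without the first siRNA under mock it was also called, but the mock array left was below background, so the change is a bound of at least 4.12-fold. Depletion plus TSA against siCONT mock and depletion under TSA do not use the depleted mock arrays. Leaving out either of those arrays therefore left the values at 1.36 and 1.59. Both were then called only because the spread in the fit was smaller (SE 0.32 against 0.76).

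CDKN2B encodes p15, an INK4 inhibitor that TGF-beta induces. Its probe (chr9:22008979-22009038) was not well above background on any mock array, at -5.36 and -4.16 in siCONT and -5.73 and -3.51 in depleted cells. It was at -1.60 and -1.55 in siCONT with TSA and at -1.10 and -1.87 in depleted cells with TSA. All 4 TSA arrays lay above all 4 mock arrays. Because the mock groups were dim, folds are bounds: at least 3.53-fold higher with TSA in siCONT (adjusted p = 0.020, or 0.193 with siCONT averaged), at least 4.33-fold with TSA in depleted cells (adjusted p = 0.020, or 0.044), and at least 3.76-fold with depletion plus TSA against siCONT mock (adjusted p = 0.014, or 0.073). Depletion under TSA gave a log2 change of 0.09 (95% interval -1.75 to 1.93, adjusted p = 0.945). The limma p-values beside the bounds belong to fitted changes that use mock values near background. The call with TSA alone was lost without the first siCONT mock array or either siCONT array with TSA. That of the combination was lost without the first siCONT mock array or the first siRNA with TSA. That in depleted cells was lost without the first or the second siRNA with TSA. Because the mock values were dim, no sizes are given for these fits. With normexp background correction, which shrinks dim probes, the 3 changes were 0.57, 0.82 and 0.65, all under 2-fold. CDKN2B, whose direction the filter had fixed, was higher with TSA alone, and CDKN2D was lower. Both carry GC boxes in the windows shown above, and any part of these boxes in the changes was not tested.

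CDKN2D encodes p19, another INK4 inhibitor. It was at 4.02 and 4.06 in siCONT mock, 3.50 and 3.0 in depleted mock, 2.28 and 2.18 in siCONT with TSA, and 3.0 and 2.15 in depleted cells with TSA. The siCONT mock arrays were the highest 2 of the 8. The log2 change was -1.81 with TSA alone (SE 0.30, adjusted p = 0.0061, or 0.151 with siCONT averaged) and -1.47 with depletion plus TSA (adjusted p = 0.0093, or 0.089). With depletion alone it was -0.79 (adjusted p = 0.141) and with TSA in depleted cells -0.68 (adjusted p = 0.122), which was -1.11 without the first siRNA with TSA (adjusted p = 0.023) and -1.07 under median scaling (adjusted p = 0.037), both called.

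CDKN2A, which encodes p16 and, from another first exon, p14ARF, was measured on all arrays by 1 of its 2 probes (A_23_P43490, chr9:21968039-21968098). That probe was at -0.01 and -0.17 in siCONT mock, 0.05 and 0.42 in depleted mock, -0.47 and -0.53 in siCONT with TSA, and 0.24 and 0.22 in depleted cells with TSA. Depleted arrays lay above siCONT arrays under each treatment. The log2 change with depletion under TSA was 0.73 (SE 0.16, adjusted p = 0.028, or 0.362 with siCONT averaged), which was under 2-fold, and depletion alone gave 0.32 (adjusted p = 0.221). The second probe (chr9:21970901-21970960) stayed near background on all arrays and was not tested. Which of the gene's products each probe reads was not determined here.

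CDKN2C encodes p18. Its levels ran from -0.08 to 1.01 over the 8 arrays, at 0.59 and 0.46 in siCONT mock, 1.01 and 0.24 in depleted mock, 0.42 and 0.62 in siCONT with TSA, and 0.58 and -0.08 in depleted cells with TSA. The depleted arrays overlapped the siCONT arrays under each treatment. No comparison passed the test, and the log2 changes of the 6 comparisons lay between -0.38 and 0.10. The 95% interval for depletion plus TSA ran from -1.04 to 0.48.

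**Figure D2:**
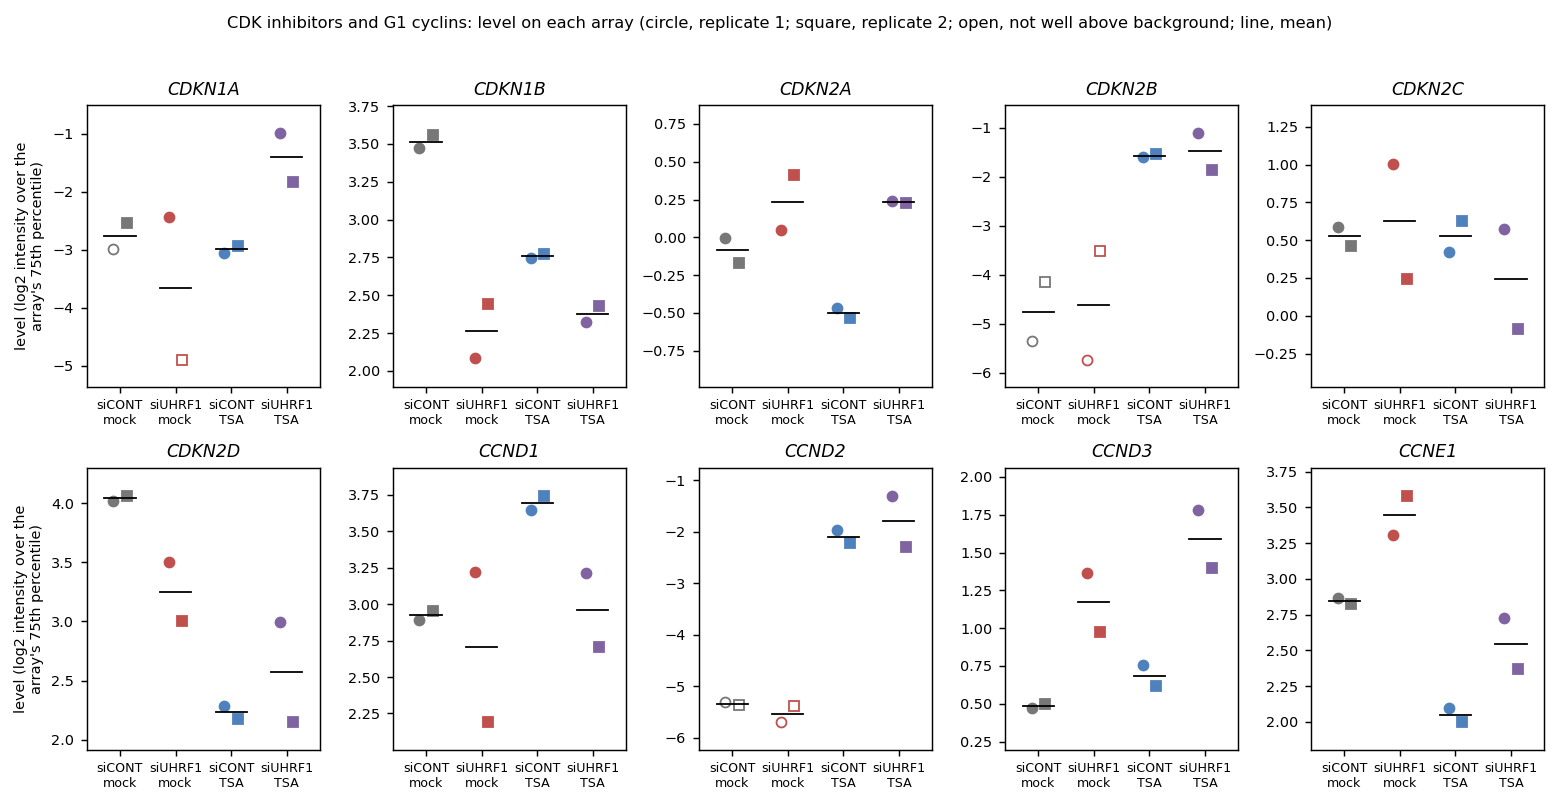
Level of the brightest probe of each of the 10 genes on each array (log2 intensity over the array's 75th percentile; the axis differs between genes), with open symbols where the probe was not well above background and a line at the group mean. CDKN2B and CCND2 are open on all 4 mock arrays and filled on all 4 TSA arrays, between -2.29 and -1.10.

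CCND2 encodes cyclin D2. Its probe (chr12:4414040-4414099) was not well above background on any mock array, at -5.31 and -5.37 in siCONT and -5.70 and -5.39 in depleted cells. With TSA it was at -1.96 and -2.22 in siCONT and at -1.29 and -2.29 in depleted cells. All TSA arrays lay above all mock arrays. CCND2 entered the comparisons of TSA with mock only through the TSA arrays, which fixed its direction. Folds are bounds, and the limma p-values belong to fitted changes that use mock values near background. CCND2 was at least 2.47-fold higher with TSA in siCONT (adjusted p = 0.0013, or 0.064 with siCONT averaged). With depletion plus TSA against siCONT mock it was at least 3.04-fold higher (adjusted p = 0.00055, or 0.013). With TSA in depleted cells it was at least 3.50-fold higher (adjusted p = 0.00061, or 0.0053). Depletion under TSA gave a log2 change of 0.30 (95% interval -0.49 to 1.09, adjusted p = 0.551), with 0.80 for the first siRNA and -0.20 for the second. With normexp the first 3 changes were 0.57, 0.71 and 0.80, all under 2-fold.

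CCND3 encodes cyclin D3. It was at 0.47 and 0.50 in siCONT mock, 1.37 and 0.98 in depleted mock, 0.75 and 0.62 in siCONT with TSA, and 1.78 and 1.40 in depleted cells with TSA. All 4 depleted arrays lay above all 4 siCONT arrays. The log2 change with depletion plus TSA was 1.10 (SE 0.19, adjusted p = 0.0049, or 0.081 with siCONT averaged), and without the first siRNA with TSA it was 0.91, under 2-fold. It was 0.70 under median scaling and 0.94 with normexp, both under 2-fold. Depletion under TSA gave 0.90 (adjusted p = 0.027, or 0.329), under 2-fold (1.09 and called without the second siRNA with TSA), and depletion alone gave 0.69 (adjusted p = 0.075). TSA alone gave 0.20 (adjusted p = 0.426).

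CCND1, the cyclin D gene that Wnt signalling is known to induce in colon cells, was measured by 10 spots per array. It was at 2.89 and 2.96 in siCONT mock, 3.22 and 2.19 in depleted mock, 3.65 and 3.75 in siCONT with TSA, and 3.22 and 2.70 in depleted cells with TSA. The arrays of the 2 siRNAs under mock lay on either side of the siCONT arrays. No comparison passed the test; the largest changes were 0.77 with TSA alone (SE 0.35, adjusted p = 0.12) and -0.74 with depletion under TSA (adjusted p = 0.188).

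CCNE1 encodes cyclin E1, which activates CDK2 at the entry into S phase. It was at 2.87 and 2.83 in siCONT mock, 3.30 and 3.58 in depleted mock, 2.09 and 2.00 in siCONT with TSA, and 2.72 and 2.37 in depleted cells with TSA. All TSA arrays lay below all mock arrays, and under each treatment the depleted arrays lay above the siCONT arrays. TSA gave a log2 change of -0.80 in siCONT (SE 0.17, adjusted p = 0.013, or 0.284 with siCONT averaged) and -0.90 in depleted cells (adjusted p = 0.0080, or 0.064), both under 2-fold. The second was -1.03 without the first siRNA under mock, -1.07 without the first siRNA with TSA and -1.29 under median scaling, which were called. Depletion alone gave 0.60 (adjusted p = 0.076), and depletion plus TSA against siCONT mock gave -0.30 (adjusted p = 0.186).

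**Figure D3:**
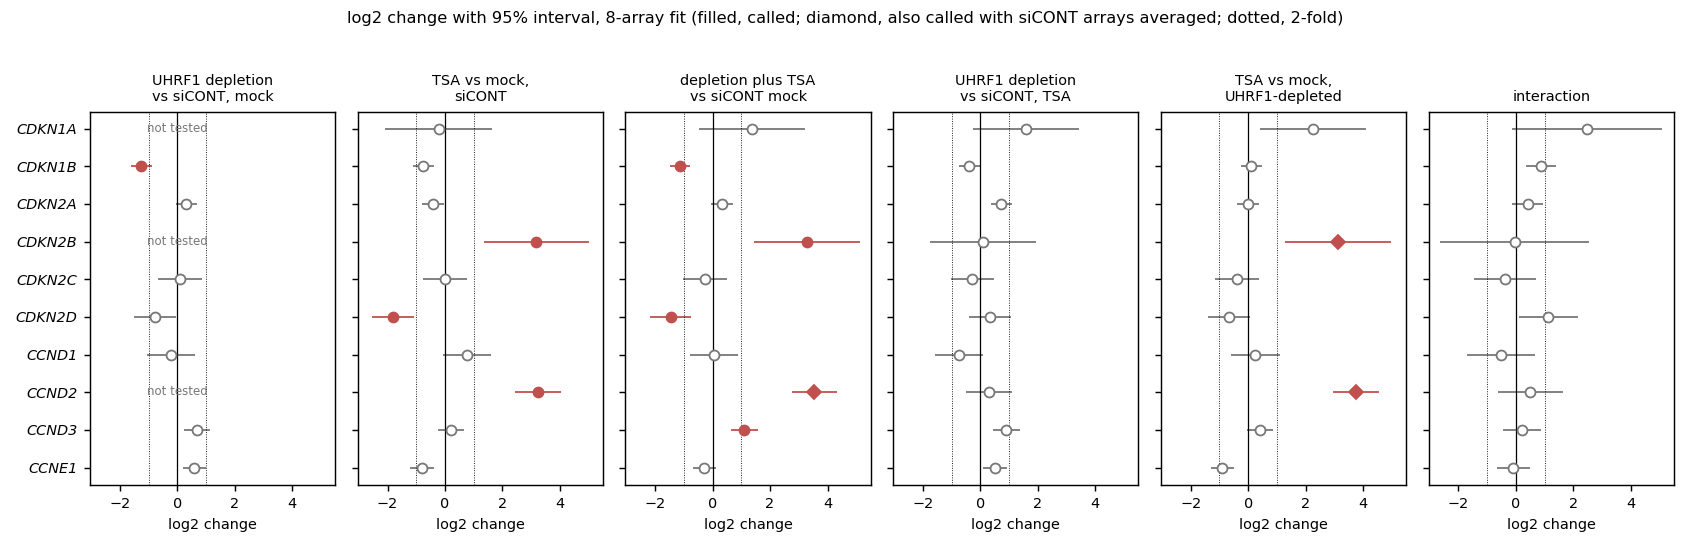
Log2 change of the brightest probe of each gene in the 6 comparisons, with its 95% interval from the 8-array fit; filled symbols were called, diamonds were also called with siCONT arrays averaged, and dotted lines mark 2-fold. Changes of CCND2 and CDKN2B from dim groups depend on values near background, and the bounds in the text apply to them.

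With depletion alone, 7 members were tested and 1 was called, CDKN1B, lower. Over all probes 4.12% of those tested were called, and 0.0223% with siCONT averaged, where no member was called and 1 had an unadjusted p under 0.05. In that limma fit 2038 of 22380 probes had an unadjusted p under 0.05. With TSA alone, 3 of 10 members were called: CCND2 and CDKN2B rose and CDKN2D fell. CCND2 and CDKN2B were above background on no mock array and entered this and the other comparisons of TSA with mock only through the TSA arrays, which fixed their direction, so those counts are not read against the share over all probes. That share was 18.6%, or 14.6% of the probes that exceeded background on every array, where CDKN2D was the 1 member called of 7. Over all probes it was 1.55% with siCONT averaged, where no member was called and 3 had an unadjusted p under 0.05. So had 4746 of 23229 probes in that limma fit. With depletion plus TSA against siCONT mock, 5 of 10 were called, CCND2, CDKN2B and CCND3 higher and CDKN1B and CDKN2D lower. The filter had fixed the direction of CCND2 and CDKN2B there too, and the share over all probes was 25.6%. With only the probes above background on all arrays, CCND3, CDKN1B and CDKN2D were called, 3 of 7, against 19.5%. With siCONT averaged, CCND2 alone was called, whose direction the filter had fixed. The share over all probes was 15.4%, and that call is not read against it. These 3 comparisons share the siCONT mock arrays, and with so few members none of the counts was tested against the share over all probes.

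With depletion under TSA no member was called in limma at 8 arrays, where 8.25% of all probes were called. There 4 members had an unadjusted p under 0.05, as had 8268 of 23834 probes. With siCONT averaged none was called either, against 0.692% of all probes. In that fit 2 members had an unadjusted p under 0.05, as had 3291 of 23834 probes. With TSA in depleted cells 2 of 10 were called, CCND2 and CDKN2B, whose direction the filter had fixed, against 20.7% of all probes. With only the probes above background on all arrays, limma called 0 of 7 members, against 15.6%. With siCONT averaged CCND2 and CDKN2B were called again, and the share over all probes was 17.6%. Because of the filter, neither count of these 2 genes is read against its share.

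The interaction asks whether the change with TSA differed between depleted and siCONT cells. It was called for no member in the 8-array limma fit, where 4.89% of all probes were called. There 2 members had an unadjusted p under 0.05, as had 7039 of 24578 probes. With siCONT averaged the interaction was called for 0% of all probes, and no member had an unadjusted p under 0.05, against 2173 of 24578 probes. The largest values were 2.48 for CDKN1A (SE 1.08, adjusted p = 0.192), with 1 of 2 arrays dim in each mock group, 1.13 for CDKN2D (SE 0.43, adjusted p = 0.150) and 0.87 for the brighter CDKN1B probe (SE 0.21, adjusted p = 0.064). Without the second siRNA under mock the brighter probe gave 1.04 (adjusted p = 0.018). CDKN1A was called without the first, where the depleted mock array left was below background, so no size is given. For the other CDKN1B probe it was -0.12 (adjusted p = 0.832). The siRNA number was also fitted as a block within the depleted arm. There the interaction passed the limma test for CDKN1A (adjusted p = 0.048) and CDKN2D (adjusted p = 0.021). That fit called 9.23% of all probes. Its spread includes that of the siCONT pairs, which differed by little more than the spot noise. The CDKN1A value also uses the dim depleted mock array.

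Among genes well above background on all arrays with an SD of at least 0.5, 4361 in number without names that are only probe or transcript IDs, the pattern over the 8 arrays most like that of CCND2 was that of ATP6V1D (Pearson r = 0.998) and BRI3 (r = 0.997). For CDKN2B these were LOC100652766 (r = 0.987) and LOC100507613 (r = 0.979), for CDKN2D TERC (r = 0.992) and GUCA1B (r = 0.989), and for CDKN1B ZNF544 (r = 0.968) and XYLT2 (r = 0.930). For CDKN1A they were LOC389634 (r = 0.933) and MAP3K8 (r = 0.924), and for CDKN2A RHPN1 (r = 0.970) and RAB36 (r = 0.968). CDKN2C was most like TMEM123 (r = 0.952) and ROR1 (r = 0.923). CCND1 was most like TGFBR3 and GFM2 (both r = 0.984), CCND3 like NELF (r = 0.982) and MFNG (r = 0.976), and CCNE1 like CARHSP1 (r = 0.991) and C1orf93 (r = 0.990). Names are those of the array's design. The 8 points share their groups, and the values are descriptions chosen as the highest of many. CCND2 and CDKN2B were themselves above background on no mock array, and CDKN1A on only some. Their patterns therefore rest in part on values near background.

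Genes that act with the members were followed in the comparison of depletion plus TSA with siCONT mock, where the median log2 change over all probes tested was -0.14 and 25.6% were called, or 15.4% with siCONT averaged. The 4 lists had 22.2%, 40%, 30% and 26.7% of their tested genes called in the order given here, and 16.7%, 40%, 20% and 6.67% with siCONT averaged. None was tested against the share over all probes, and nothing about the lists is read from the counts. Of 18 genes of G1 kinases and the RB pathway, none rose and 4 fell (3 with siCONT averaged), with a median of -0.60. CDC25A, the phosphatase that activates CDK2, was at 1.78 and 1.74 in siCONT mock and at -1.0 and -0.63 with depletion plus TSA (log2 change -2.57, adjusted p = 0.00021, or 0.011). CDK2 itself gave -1.84 (adjusted p = 0.0008, or 0.024). RBL1, which encodes the RB relative p107, gave -1.53 (adjusted p = 0.00041, or 0.024).

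Of 10 genes for the turnover of p27 and G1 cyclins, none rose and 4 fell, also with siCONT averaged, with a median of -0.76. SKP2, the F-box protein that targets p27 for degradation, was at 1.10 and 1.14 in siCONT mock and at -2.01 and -1.19 with depletion plus TSA (log2 change -2.72, adjusted p = 0.00091, or 0.018). Its cofactor CKS1B gave -2.15 (adjusted p = 0.00052, or 0.018), and FBXO4, an F-box protein linked to cyclin D1 turnover, gave -1.65 (adjusted p = 0.00084, or 0.026). In the same comparison the brighter CDKN1B probe gave -1.14 (adjusted p = 0.0018, or 0.0577). The other CDKN1B probe gave -0.99, under 2-fold and not called. Protein was not measured on these arrays.

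Of 20 p53 targets other than CDKN1A, 2 rose and 4 fell (1 and 3 with siCONT averaged), with a median of -0.40. TP53INP1, a stress-induced p53 partner, was not well above background on the siCONT mock arrays and was at least 5.05-fold higher with depletion plus TSA (adjusted p = 0.0041, or 0.037). It entered this comparison only through the arrays with depletion and TSA, which fixed its direction. It is among the genes counted as risen. BTG2, an antiproliferative gene, gave -2.20 (adjusted p = 0.00015, or 0.011), and BBC3, which encodes the pro-apoptotic PUMA, gave -1.98 (adjusted p = 0.0015, or 0.032). Of 15 transcriptional regulators of the members, 2 rose and 2 fell (1 and 0 with siCONT averaged), with a median of -0.22. BMI1, a Polycomb protein that represses the CDKN2A locus, gave 1.81 (adjusted p = 0.00077, or 0.025), FOXO1, a factor that activates CDKN1B, gave 1.57 (adjusted p = 0.0083, or 0.081), and EGR1 gave -3.09 (adjusted p = 0.0067, or 0.060). Of 3 neighbours of CDKN2A and CDKN2B in 9p21, 1 was tested and it was not called.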

How the data were processed

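The authors measured total RNA of DLD1 cells on single-colour Agilent SurePrint G3 Human GE v2 arrays, and per the file headers the deposited intensity values were extracted with Feature Extraction 10.7.3.1 (hg19), with background subtracted and no scaling between arrays. The authors' series table repeats these intensity values (ratio 0.995 to 1.00). Spots were averaged per probe without outlier spots. Levels were log2 intensity minus each array's 75th percentile of non-control probes. limma 3.58.1 in R 4.3.3 fitted 4 group means to 8 arrays (4 residual degrees of freedom, prior 2.17), or to 6 samples with siCONT averaged. Testing required a signal well above background on the 2 arrays of at least one compared group (any group for the interaction), and the brightest probe stood for a gene. Tests were two-sided, and the script was tested on simulated data.

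Groups came from the labels. The labels give the same siRNA number under both treatments, and deviations of the siRNA pairs correlated between mock and TSA (r = 0.337), whereas all pairs with a siCONT group lay between -0.056 and 0.074, so siRNA numbers were blocked only within the depleted arm. Between 43.3% and 48.0% of probes were well above background, and the number of arrays limits the precision. All members were named, with at most 3 called genes per list by size of change in the combined comparison, and the 2 most similar genes per member. Members and lists were chosen with earlier results of these data known. In bulk RNA, fewer cells of a kind and less RNA per cell cannot be told apart. Exon and UTR annotation of hg19 was not used here.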

Additional observations from a re-analysis of the deposited data

Results flagged for a closer look

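Among the list genes named in the text and the paralogs of the members, 3 had a change with TSA that differed between depleted and siCONT cells by the interaction term of the 8-array limma fit. None of these 3 kept the call with siCONT arrays averaged, but that fit called 0% of all probes. The 8-array fit called 4.89% of all probes. In the full lists it called 1 gene higher and 3 lower of 18 in G1 kinases and the RB pathway. It called none of 10 turnover genes, 1 higher and 2 lower of 20 p53 targets, and 1 higher and 1 lower of 15 regulators. Nothing about the genes as a set is read from these counts. CDKN1C and CCNE2, the paralogs of CDKN1A and CDKN1B and of CCNE1, were chosen after their values were seen.

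CDKN1C, the Cip/Kip inhibitor p57, was at 4.71 and 4.70 in siCONT mock, 3.80 and 3.35 in depleted mock, 3.26 on each siCONT array given TSA, and 5.08 and 4.78 in depleted cells with TSA. In limma depletion alone gave -1.13 (adjusted p = 0.025, or 0.417 with siCONT averaged), and TSA alone gave -1.44 (adjusted p = 0.0026, or 0.129). TSA in depleted cells gave 1.35 (adjusted p = 0.0027, or 0.027). Depletion plus TSA against siCONT mock gave 0.22 (adjusted p = 0.353, or 0.672) and was not called. The interaction term of CDKN1C reached 2.80 (SE 0.26, adjusted p = 0.011, and 0.260 after averaging siCONT).

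CCNE2, which encodes cyclin E2, was at -0.78 and -0.79 in siCONT mock, -0.23 and 0.23 in depleted mock, -0.40 and -0.46 in siCONT with TSA, and -1.83 and -1.32 in depleted cells with TSA. Its interaction was -1.93 (SE 0.31, adjusted p = 0.030, or 0.435).

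BTG2 fell by 2.57 on the log2 scale with TSA in siCONT and by 1.52 in depleted cells, and its interaction was 1.05 (SE 0.18, adjusted p = 0.033, or 0.542).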

How the results depend on the processing

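Of 1125 member values recomputed under 21 alternatives, 1032 kept their direction and side of the threshold, 39 lost a call, 18 gained one, 36 uncalled values changed sign, and none of the called values reversed. Averaging the siCONT arrays took the members called from 1 to 0 with depletion alone, from 3 to 0 with TSA alone and from 5 to 1 with both. The share called over all probes went from 4.12% to 0.0223%, from 18.6% to 1.55% and from 25.6% to 15.4%. Normexp, whose added offset of 50 shrinks dim probes by construction, gave 1 with TSA alone, 2 with both and 0 with TSA in depleted cells. Over all probes it called 7.35%, 11.1% and 9.87%, respectively. Keeping probes above background on all arrays, which removes CDKN1A, CDKN2B and CCND2, gave 1, 3 and 0 in these 3 comparisons. The shares of such probes called were 14.6%, 19.5% and 15.6%. Median scaling gave 4 with TSA in depleted cells, where it called 28.2% of all probes. The percentile over probes above background on all arrays gave 1 with depletion under TSA (CCND3 gained), against 8.37% of all probes. It gave 3 with TSA in depleted cells (CDKN1A gained), against 20.7%, and 4 with both (CDKN1B lost), against 24.8%. The cause was not tested. The methods' t-test with Benjamini-Hochberg gave 0 with depletion alone, 1 with both and 0 with TSA in depleted cells, where unadjusted it gave 1. Adjusted, it called 0%, 11.4% and 0% of all probes in these, so the counts of 0 say nothing about the members. Unadjusted, it called 13.7% of all probes with TSA in depleted cells. Leaving out 1 array gave 0 to 1 with depletion alone (0 without either siCONT mock array), 2 to 3 with TSA alone, 3 to 6 with both (3 without the first siRNA with TSA), 0 to 1 with depletion under TSA, 1 to 4 with TSA in depleted cells (4 without the first siRNA under mock, 1 without the second with TSA) and 0 to 1 for the interaction (CDKN1A without the first siRNA under mock, where the array left was below background, CDKN1B without the second). A lone array is then assumed to vary like the other groups. The share of all probes called also moved. With depletion alone it fell well below 4.12% without either siCONT mock array, where CDKN1B lost its call. For the interaction it rose above 4.89% without the first or the second siRNA under mock, where CDKN1A or CDKN1B gained one. With TSA in depleted cells it fell slightly without the first siRNA under mock, although more members were called there. No count in this section is therefore read as a result about the members.

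A replicate block over all groups left every count as it was, at 1, 3, 5, 0, 2 and 0. Over all probes it called 3.62%, 18.8%, 25.8%, 8.02%, 20.9% and 2.75%. Within the depleted arm alone, the block gave 3 with TSA in depleted cells and 2 for the interaction, against 21.6% and 9.23% of all probes.

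Scaling moved the share of called probes that were higher. With both treatments it was 56.9%, 31.6% under median scaling and 72.1% with the percentile over probes above background on all arrays, which gave 66.3% against 55.8% with TSA alone. The same 3 shares were 65.2%, 29.1% and 75.6% with depletion under TSA and 56.5%, 30.1% and 68.3% with TSA in depleted cells, and 57.7% and 24.2% by median scaling for the interaction. With both treatments the median change of all probes was -0.14, and -0.54 under median scaling, where CCND3 gave 0.70 and was not called.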
